A study of Mus musculus with 3 samples.

Results

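The ETS factors that lie downstream of the kinase ERK were followed in PD-treated J1 mESCs through 10 genes: Etv1, Etv4, Etv5, Elk1, Elk3, Elk4, Ets1, Ets2, Erf and Gabpa. They were chosen by name as ETS genes with known links to ERK, and the values on these arrays took no part in the rule. Earlier results of these data were, however, known when the choice was made. All 10 were on the array, with 19 probes among the 27235 probes that could be matched to 1 of 20660 genes, out of 55681 probes that were not controls. J1 is a mouse embryonic stem cell line from the strain 129S4/SvJae. PD (PD0325901) is a small molecule inhibitor of MEK, the kinase that activates ERK. The 3 samples were cultures given 1 µM PD for 24 h, and every culture also received LIF at 1000 U/mL on gelatin with serum replacement. Per the study's methods they came from independent experiments. Total RNA of each culture was labelled in 1 colour and hybridised to its own Agilent mouse array. Cells without PD were not analysed here, so no effect of PD was computed and no p-value is given. What follows is the signal of each probe in each culture and its spread.

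ETS factors are transcription factors that share a DNA-binding domain and recognise sites around the core GGAA. ERK phosphorylates several of them directly, which changes how well they activate or repress their targets. Etv1, Etv4 and Etv5 form the PEA3 group, whose own transcription is a widely used readout of FGF and ERK signalling. Elk1, Elk3 and Elk4 are the ternary complex factors, which sit with the serum response factor Srf on the promoters of immediate early genes such as Fos and Egr1. Ets1 and Ets2 are activated by ERK at a threonine near their N-terminus. Erf is a repressor that leaves the nucleus when ERK phosphorylates it, and in embryonic stem cells it is known for opposing FGF and ERK signalling. Gabpa is the DNA-binding subunit of GABP, which controls many housekeeping and mitochondrial genes. An mRNA array reports none of these phosphorylations.

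The sites that these factors bind can be seen in some of their own promoters. RefSeq windows of GRCm38.p6, from 250 bases before to 50 bases after an annotated start, were read for 8 of the 10 genes (12 windows), with none for Etv4 and Ets1. The letters CCGGAAGT and AGGAAGT, 2 high-affinity forms of an ETS site, were searched on both strands, and a match of one cannot overlap a match of the other on the same GGAA. They were found in 6 of 12 windows, from Elk4, Etv1, Etv5 and Gabpa. Of all 32851 RefSeq windows, 12.9% held either form, 9.35% held AGGAAGT and 3.89% held CCGGAAGT. The CArG box, the site of Srf beside which ternary complex factors bind, was in 0 of the 12 windows and in 1.63% of all windows. Of the matches, 5 are printed here because they show what an ETS site looks like in the promoter of an ETS gene. The capitals mark the searched letters, each sequence runs 5′ to 3′ on the strand that carries them, and binding was not measured in this series. Distances are from the annotated start of the window that holds the match. For Elk4 the first start means that of its first window. The RefSeq genes of Elk4, Etv5 and Gabpa begin further upstream, at 132007577, 22439570 and 84834891. The printed Etv5 and Gabpa letters thus lie inside those genes.
Elk4 CCGGAAGT, chr1:132007541-132007570, + strand, 68 bases before the first start: cggcccctcccCCGGAAGTgacgctcgcgc
Elk4 AGGAAGT, chr1:132007418-132007446, + strand, 191 bases before the first start: ttgggcctgcgAGGAAGTacgaatgtccg
Etv1 AGGAAGT, chr12:38780067-38780095, + strand, 4 bases before the start: gcgagttaggaAGGAAGTagtttccctcg
Etv5 AGGAAGT, chr16:22438350-22438378, - strand, 1 base past the start: cgacgacacaaAGGAAGTggtttaaactc
Gabpa AGGAAGT, chr16:84835001-84835029, + strand, 112 bases before the start: caaacaggaggAGGAAGTggagggtaagt
Elk4 had the letters in each of its 3 windows, and its other 2 matches lay 70 and 63 bases before its other starts. Those 2 also lie inside the RefSeq gene. Since 2 of the Elk4 windows overlap, windows of 1 gene are not independent. Etv1 and Etv5 had them in 1 of 2 windows each. The motifs were chosen after the windows had been seen, so the counts describe these windows only.

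The arrays behind the values were alike in depth. The signal is the processed brightness of a spot in scanner units, and the scanner software marks a spot that is well above its background. The lowest signal so marked was 10.1, 11.4 and 10.3 in replicates 1, 2 and 3, which serves here as the floor, the brightest was 401357, 409602 and 396698, and 0 spots were saturated. The 3 arrays lay on 1 slide and were read in 1 scan. Replicate 2 had 187 spots marked as uneven against 25 and 8. Of the 48 blocks into which the surface was divided, 6 held at least 10 of these spots. Of the 19 ETS probes 1 (that of Etv5) lay in such a block. The probe carried no outlier mark. Markers of embryonic stem cells were detected for 10 of 10 genes, including Pou5f1, Nanog and Sox2, as the label of the cells requires. The lists of other cell types were detected for 6 of 6 genes (primitive endoderm), 2 of 5 (mesoderm and primitive streak), 4 of 6 (fibroblast) and 6 of 7 (endothelial and blood). Among all named genes 72.7% were detected. The primitive endoderm genes ran from Pdgfra (43.5, 37.2 and 40.5) to Sox7 (146, 146 and 135), with Foxa2 detected on 1 of its 2 probes. Mixl1, Postn and Cdh5 were well above background in no culture, Mesp1 and Col3a1 in 1 and T in 2. The detected genes ran from Ptprc (12.2, 15.3 and 13.5) to Itgam (9320, 8491 and 8215) in the endothelial and blood list, and the 2 of the mesoderm list were Eomes (549, 597 and 484) and Kdr (7313, 8348 and 7862, on 1 of its 2 probes). These examples were chosen after their values were seen. A part of other cells in the signals below was not tested, and in these bulk cultures few cells with much RNA of a gene and many cells with little cannot be told apart.

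Every ETS gene was detected. All 19 probes were well above background in all 3 cultures, and so were all 10 genes, whether a gene was taken by its brightest probe or by every probe. Among all matched probes 72.4% were detected in the same way, and among all named genes 72.7%. The level of a probe was taken as the log2 of its signal relative to the 75th percentile of its array, so that 0 is that percentile (signals of 551, 511 and 527). By this measure 12 probes lay above 0 and 7 below. By definition about 75% of all probes that were not controls lie below 0, detected or not, whereas all 19 were detected. How bright a probe is depends on its sequence as well as on its mRNA, so the levels do not rank the genes.

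**Figure D1:**
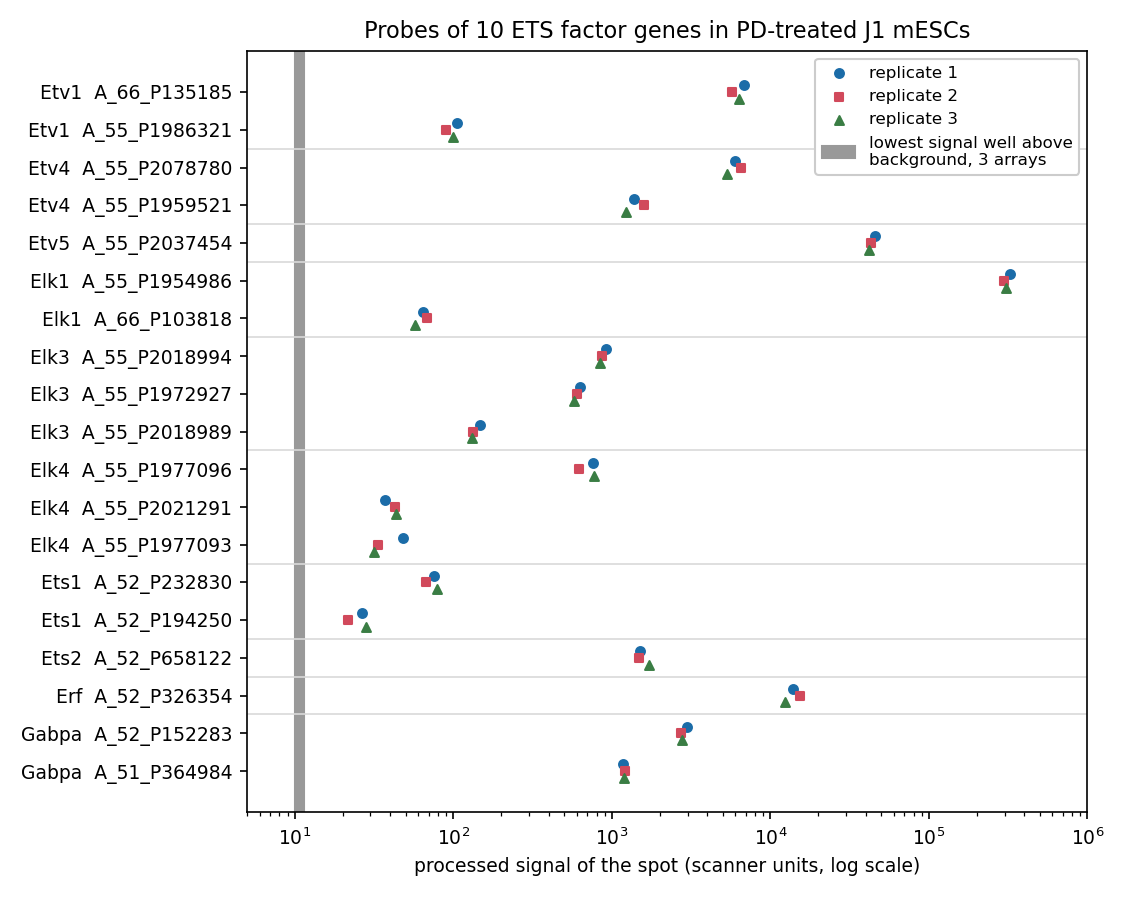
Processed signal (scanner units, log axis) of each of the 19 probes of the 10 ETS factor genes, 1 symbol per replicate. The grey band spans the lowest signals well above background on the 3 arrays (10.1 to 11.4), all points lie to its right, and the 2 Elk1 probes lie far apart.

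Of the PEA3 group, Etv5 was read by 1 probe. A_55_P2037454 gave 45894, 43151 and 41696 in replicates 1 to 3, a level of 6.36 ± 0.05 (SD, n = 3 here and throughout). Replicate 1 had the highest signal, but after scaling to the array replicate 2 did (6.38, 6.40 and 6.31), so the order of the cultures rests on the scaling.

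Etv4, the second member of the group, had 2 probes. A_55_P2078780 read 6011, 6523 and 5317 (level 3.49 ± 0.17), and A_55_P1959521 read 1371, 1597 and 1228 (1.39 ± 0.22). Both put replicate 2 highest and replicate 3 lowest, and they did so under each of the 7 settings of scaling, background and outlier marks that were tried. The gap from highest to lowest was 0.34 log2 units on the first probe and 0.42 on the second. Those SDs were wide for probes of that brightness, since 94.2% and 95.3% of the detected probes of like brightness had a lower SD, with the detected probes cut into 4 equal classes by mean level. The cause was not tested.

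Etv1 also had 2 probes, which read very different signals. A_66_P135185 gave 6790, 5727 and 6324 (level 3.57 ± 0.07), while A_55_P1986321 gave 105, 90.4 and 98.8 (-2.43 ± 0.06). They lay 6.0 log2 units apart, a distance reached by 6.66% of the 3751 genes that had several probes, all detected. Even so, they ranked the cultures alike, with replicate 1 highest and replicate 2 lowest. Scaling to the median of the array put replicate 3 above replicate 1 on both probes, and the normexp background correction did so on the dimmer probe, whose level it raised to -1.84.

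The ternary complex factors were measured by 8 probes. Elk1, the member most often used as a reporter of ERK activity, had 2 that could hardly differ more. A_55_P1954986 read 322594, 296881 and 307884 (level 9.19 ± 0.01), which placed it 54th by mean level among the 55681 probes. A_66_P103818 read 64.6, 68.1 and 57.3 (level -3.07 ± 0.15, or -2.31 with normexp). The first probe was thus near the top of the scanner's range in every culture and the second was 5.56 times the floor at its lowest.

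The 12.26 log2 units between the Elk1 probes were a rare distance. Among the 3751 genes the median distance between the brightest and the dimmest probe was 2.20 and the 95th percentile 6.38. Only 3 others reached that of Elk1, namely Glrx2 (13.24), Chchd2 (12.95) and Ttc38 (12.40). The probe with the next number after the bright Elk1 probe, A_55_P1954987, is assigned to Slc10a1, a bile acid carrier of the liver. It read 350617, 335601 and 357142 and was 11th of all probes. The other Slc10a1 probe read 2.55 in replicates 1 and 3 (mean level -7.72), under the floor. Its replicate 2 value was left out for an outlier mark, and only on that array was the probe well above background. The probe numbered just before the bright Elk1 probe, A_55_P1954985, which was not matched to a gene, read 14.7, 11.8 and 14.4. These genes and neighbours were looked at because of the Elk1 values. Why the probes differ was not tested, and probe sequences were not used here. Whether the signal of the bright probe is that of Elk1 mRNA is therefore not known, and 9.19 is the level of a probe and not of Elk1. With the bright probe left out Elk1 was still detected in all 3 cultures, by its dim probe.

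Elk3 (Net), which represses its targets until ERK phosphorylates it, had 3 probes in close accord between cultures. A_55_P2018994 read 924, 869 and 839 (level 0.73 ± 0.05), A_55_P1972927 read 627, 601 and 575 (0.18 ± 0.05) and A_55_P2018989 read 148, 134 and 131 (-1.94 ± 0.05). Each had its lowest level in replicate 3, with a range of at most 0.11 log2 units, and on 2 of them the highest was in replicate 2. Scaling to the median of the array put replicate 1 highest on all 3 and, on A_55_P2018989, replicate 2 lowest.

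Elk4 (SAP-1), the remaining ternary complex factor, was less even. A_55_P1977096 read 759, 616 and 774 (level 0.43 ± 0.15), A_55_P2021291 read 36.8, 42.6 and 43.6 (-3.69 ± 0.18) and A_55_P1977093 read 48.0, 33.6 and 31.8 (-3.83 ± 0.28). With normexp the levels of the last 2 rose to -2.52 and -2.58. The 3 probes did not rank the cultures alike: replicate 1 was lowest on A_55_P2021291 and highest on A_55_P1977093. The range of 0.53 log2 units on A_55_P1977093 was the widest of all 19 ETS probes. At signals of 31.8 to 48.0 it was also among the dimmest, and 74.3% of the probes in that dimmest class had a lower SD.

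Ets1, known for its roles in lymphoid and endothelial cells, had dim signals that were still above background. A_52_P232830 read 75.9, 67.5 and 79.4 (level -2.84 ± 0.10) and A_52_P194250 read 26.7, 21.8 and 28.1 (-4.38 ± 0.16). Both were highest in replicate 3 and lowest in replicate 2, a low that moved to replicate 1 with normexp. That correction also raised their levels, to -2.03 and -2.78. The lowest of these signals, 21.8, was 1.92 times the floor of its array, the closest approach of any ETS probe. Ets2, the paralogue of Ets1, had 1 probe, A_52_P658122, with 1505, 1481 and 1709 (1.56 ± 0.13), and replicate 3 was the highest of the 3.

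The repressor Erf was read by A_52_P326354 at 13879, 15451 and 12426 (level 4.71 ± 0.18). Replicate 2 was highest and replicate 3 lowest under all 7 settings, the same order as for both Etv4 probes. For the brightest class this was a wide spread, since 95% of its probes had a lower SD. Of the 10 stem cell markers 3 had that order as well, Pou5f1 (11265, 16872 and 10239), Esrrb and Dppa5a, as did 20.8% of all detected probes, while Sox2 had the reverse (6453, 4835 and 6827). What moved with these genes between the cultures was not tested. Gabpa was steadier: A_52_P152283 read 2982, 2735 and 2769 (2.42 ± 0.02) and A_51_P364984 read 1181, 1214 and 1187 (1.17 ± 0.07). The Gabpa probes ranked the cultures differently, with differences of at most 0.15 log2 units.

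Taking the 19 probes as a set, the cultures differed little. The median SD was 0.10 log2 units (0.01 to 0.28), against 0.09 over all detected probes, and 10 probes had an SD below 0.1. None of the 19 (0) spanned more than 1 log2 unit, as did 1.85% of all detected probes. From the dimmest to the brightest of the 4 classes the median SD was 0.19, 0.11, 0.07 and 0.06, so an SD is best read against probes of like brightness. The 2 Etv4 probes and Erf then stood highest, and the bright Elk1 probe lowest, since 1.06% of its class had a lower SD. The lowest level fell in replicate 3 on 10 of the 19 probes, and in replicates 1 and 2 on 3 and 6, whereas over all detected probes the shares were 34.4%, 31.2% and 34.4%. These counts rest on the scaling. With the median of the array, the lowest level moved from replicate 3 to replicate 2 on A_55_P2018989 (Elk3) and A_52_P152283 (Gabpa). Probes of 1 gene were designed against the same gene, so the 19 are not independent.

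**Figure D2:**
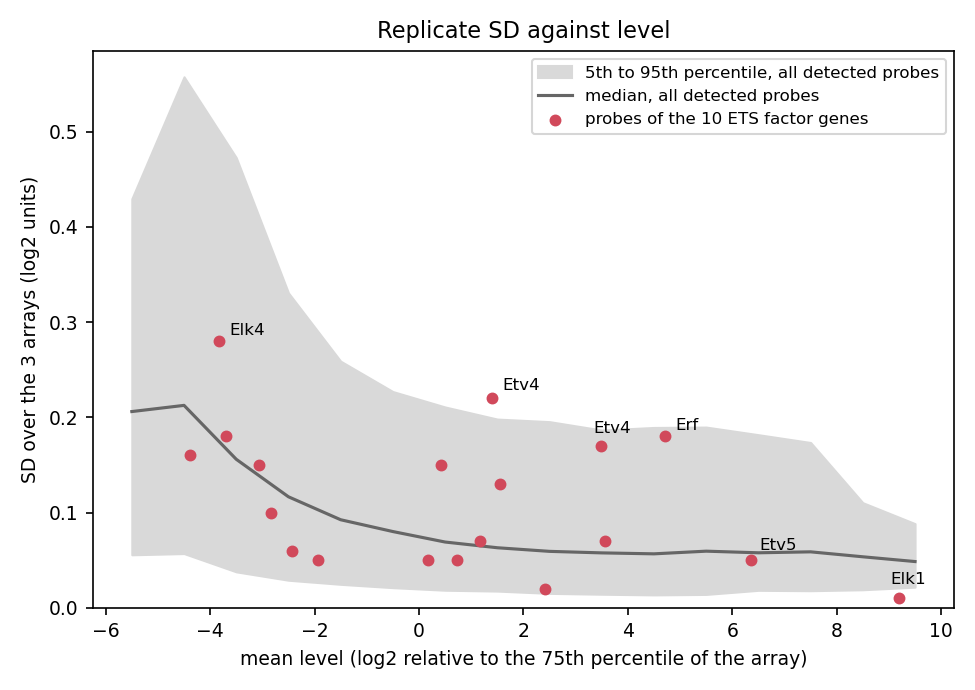
SD over the 3 arrays against mean level (both in log2 units) for the 19 ETS probes (red points), with the median (line) and the 5th to 95th percentile (grey) of all detected probes in bins of level. The Etv4 probe at a level of 1.39 lies above the grey range, the second Etv4 probe and Erf lie near its upper edge, and the bright Elk1 probe lies below its lower edge.

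The scanner software also gives an error for each spot, which for the ETS probes came to 0.14 to 0.23 log2 units. A difference between 2 cultures was counted when it exceeded 2 times the combined error of its spots. This held for 2 of the 57 differences (3.51%), 1 on an Etv4 probe (A_55_P1959521) and 1 on an Elk4 probe (A_55_P1977093). Over all detected probes it held for 5.29%. The count fell to 1 with quantile normalization or with the authors' deposited log2 table, and to 0 with scaling to the median of the array.

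Several probes of a gene were designed against the same gene and hybridised with the same RNA sample, although whether each reads only its gene was not tested. Of the 11 pairs of probes that share a gene, 4 ranked the cultures in the same order: those of Etv1, Etv4 and Ets1, and 1 of the 3 Elk3 pairs. Over all such pairs on the array 22.3% did. For Elk1, Elk4 and Gabpa no pair agreed in order.

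**Figure D3:**
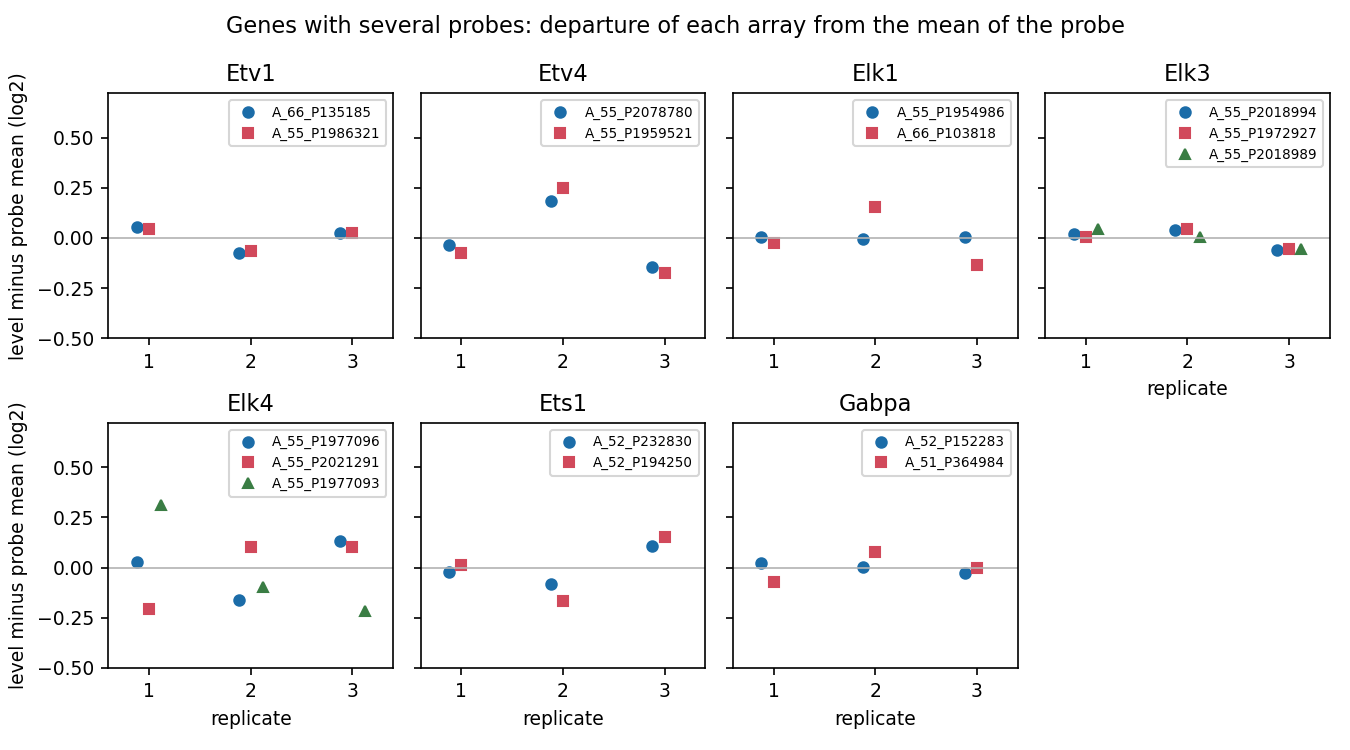
Level of each replicate minus the mean of its probe (log2 units) for the 7 ETS genes with several probes, 1 symbol per probe. The 2 Etv4 probes rise in replicate 2 and drop in replicate 3 together, those of Etv1 and Ets1 also run in parallel, and the 3 Elk4 probes scatter.

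Of 16 other members of the ETS family 11 (68.8%) were detected in all 3 cultures, near the 72.7% of all named genes. They were the Elf genes Elf1 (512, 448 and 467), Elf2 (1758, 1736 and 1637) and Elf3 (724, 726 and 697), the repressors Etv3 (230, 195 and 236) and Etv6 (263, 225 and 241), Etv2 (280, 303 and 268), Spic (428, 383 and 392), Spdef (136, 152 and 144), Spib (42.4, 41.4 and 50.2), Fev (39.0, 39.8 and 43.4) and Ehf (31.9, 38.5 and 30.7). Ehf was detected by 1 of its 2 probes. The other 5 were well above background in no culture: Fli1 and Erg, known from endothelial and blood cells, Spi1 (PU.1), the myeloid and B cell factor, Elf5, a trophoblast and mammary factor, and Elf4. Fli1 read 2.08, 2.34 and 2.13 and Spi1 read 2.40, 3.37 and 2.39, far under the floor. Elf4 was at the floor, with 11.6, 10.8 and 9.88, and passed the scanner's looser mark for a positive and significant signal in all 3 cultures.

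The mRNAs of the proteins with which these factors work were detected for 10 of the 10 genes that had a probe, Mrtfb by 2 of its 3 probes, and Cic had no matched probe. Among all named genes 72.7% were detected. Srf, the DNA-binding partner of the ternary complex factors, read 1575, 1505 and 1481, and its other coactivators Mrtfa and Mrtfb read 3204, 3089 and 3097 and 2849, 2829 and 2823. The partner subunits of Gabpa read 3729, 3842 and 3746 (Gabpb1) and 206, 184 and 192 (Gabpb2). The median SD over the 10 genes was 0.06, like that of bright probes on the whole array (0.07 and 0.06 in the upper 2 of the 4 classes).

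The mRNAs of the coactivators Crebbp (5977, 5472 and 5264) and Ep300 (1119, 1037 and 922) were detected. So were those of some parts of the ubiquitin ligase that degrades PEA3 factors, namely Cop1 (5010, 4983 and 4821), Det1 (1508, 1638 and 1334) and Cul4a (1957, 1705 and 2008). Det1 had the widest spread of the partners (SD 0.17), with replicate 2 highest and replicate 3 lowest.

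**Figure D4:**
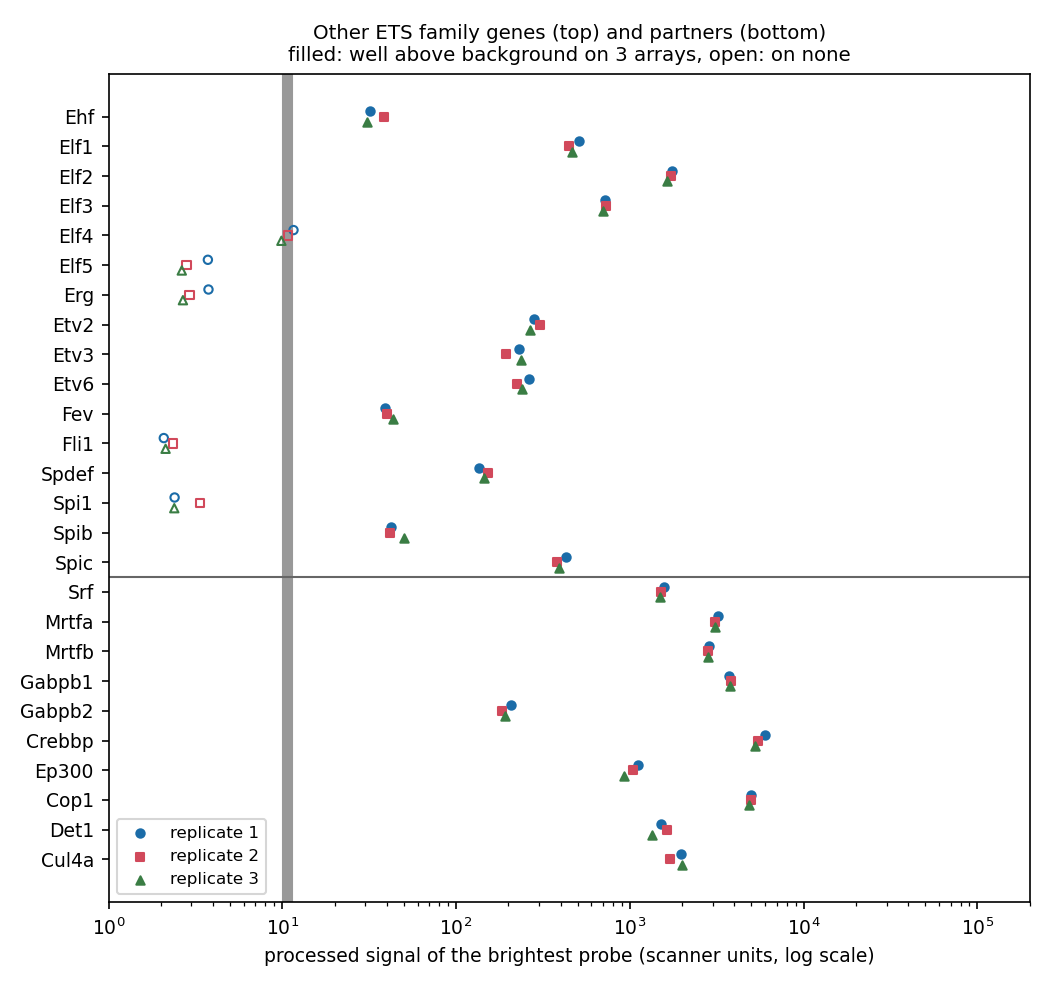
Processed signal (scanner units, log axis) of the brightest probe of the 16 other ETS family genes (above the line) and of the 10 partner genes on the array (below it), 1 symbol per replicate, open where no array was well above background. Fli1, Spi1, Erg and Elf5 lie left of the grey band of lowest signals well above background, Elf4 lies on it, and the 10 partners lie to its right.

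Upstream of the ETS factors, all 12 genes of the FGF to ERK cascade were detected in every culture, by all 23 of their probes, with a median SD of 0.06. Of 15 genes that respond to ERK, several of them targets of ETS factors, 14 were detected. Among all named genes 72.7% were detected in the same way, and among all matched probes 72.4%. Fosl1, an AP-1 subunit, was well above background in 2 cultures only (17.6, 15.9 and 11.2). The other 14 ran in signal from Junb (33.7, 34.7 and 35.0) to Ccnd1 (5063, 5046 and 5231), and Egr1 read 45.4, 38.0 and 37.5. No gene in either list spanned more than 1 log2 unit. The widest was Ier3, which responds to ERK, at 1072, 654 and 1222 (range 0.86 log2 units, SD 0.44). With no untreated culture analysed here, none of these values says whether a gene rose or fell with PD.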

How the data were processed

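RNA of 3 PD-treated J1 mESC cultures (1 group, no untreated samples) was measured on 1-colour arrays. Per the file headers the intensity of each spot was made with Agilent Feature Extraction 10.7.3.1 (10.7 in the submitters' processing notes), which subtracted background and removed trends within an array but did not normalize between arrays, on a grid that refers to mm9. The authors also deposited a log2 value per probe, with its normalization not stated. The probes of the 10 genes were found by their accessions, version dropped, with RefSeq (GRCm38.p6) as the source of symbols, and all were kept. Levels were log2 intensities less the 75th percentile of the array, and a probe was detected with at least 50% of its spots well above background. Every ETS probe has 1 spot, so the planned limma test on 10-spot probes was not run. R 4.3.3 with limma 3.58.1 gave quantile normalization and normexp (offset 50, from median signals, as no mean signal was given), and Python did the rest. Scripts were tested on simulated data. Members, lists and alternatives were chosen with earlier results of these data known. All members, other ETS genes and partners are named, except 2 planned partners that are not reported here. Only 3 arrays limit the precision.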

Additional observations from a re-analysis of the deposited data

How the results depend on the processing

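No paired analysis was possible because no second group was analysed here. The counts of ETS genes (10) and probes (19) detected held under every alternative run, also without each replicate, as did 0 probes spanning more than 1 log2 unit. The median SD was 0.07 to 0.12, other ETS family genes detected were 10 to 12, and probe pairs ranking the cultures alike were 4, or 5 with normexp. Differences over 2 combined scanner errors, 2 in the text, were 1 with quantile normalization, 1 with the deposited table and 0 with the median of each array. Levels of all 19 probes shifted by 3.74 with the median and by -1.92 with the percentile over detected probes, since the zero point moves, and 15 moved by more than their SD with normexp (-0.36 to 1.60). Alternatives on probe pairs, scanner errors, outlier marks and the bright Elk1 probe were chosen after seeing the data. Naming by platform annotation was not run, as no such table was used here. The probes nearest the floor, at under 6 times its signal in at least 1 culture, were both of Ets1, the 2 dim ones of Elk4 and the dim one of Elk1.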
